A study of Mus musculus with 8 samples.

Results

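The genes described here drive or mark the cell division cycle. They are 43 of the 25010 genes in the deposited RNA-Seq table of mouse liver, picked by gene symbol from a list of cyclins, cyclin-dependent kinases (CDKs), CDK inhibitors, E2F factors and their partners, replication genes and mitotic genes. All 43 symbols were present in the table, and all 43 passed the filter on low values that is described below. Livers of 2 WT and 2 LXRDKO mice were compared, with 1 library per mouse, and each library is named by its genotype and replicate number. All mice had a C57BL/6 background, were 8 wk old and were fasted for 4 to 6 h, and the left lobe of the liver was taken. LXRDKO mice lack both liver X receptors, LXRα (Nr1h3) and LXRβ (Nr1h2), in every cell of the body, so a difference can arise in hepatocytes, in other liver cells or outside the liver. The labels of these samples name no treatment apart from the fast.

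A cell leaves its resting state when D-type cyclins with CDK4 or CDK6, and then E-type cyclins with CDK2, phosphorylate the retinoblastoma family of pocket proteins. E2F factors are then freed to switch on the genes of DNA replication. Cyclin A, cyclin B and CDK1 carry the cell through G2 into mitosis, where Aurora and Polo-like kinases build the spindle and CDC20 starts the separation of the chromosomes. In resting cells a complex of pocket proteins and E2F4, called DREAM, keeps many late genes silent through a promoter element known as the CHR. The trimeric factor NF-Y binds the CCAAT box that many of the same promoters carry. Most hepatocytes of an adult mouse are at rest, and many are polyploid. E2F7 and E2F8, which repress transcription, take part in hepatocyte polyploidization.

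The 12 G2 and mitosis genes had the largest median log2 fold change of the 5 roles, so promoters from that role are shown. Of the 43 genes, 31 had at least 1 promoter in the RefSeq set for GRCm38.p6, 36 promoters in all, and 12 had none there. Each promoter ran from 250 bases before the start of transcription to 50 bases after it. The 4 G2 and mitosis genes with the lowest P values among those with a promoter are printed below as the 250 bases upstream of the start. Each is read 5′ to 3′ on the strand of the gene. Capitals mark CCAAT (or ATTGG, the same box on the other strand), TTTGAA (the CHR) and TTGGCGC (the core of an E2F site), and no printed matches overlap.
Cdc20, chr4:118437344-118437593, minus strand: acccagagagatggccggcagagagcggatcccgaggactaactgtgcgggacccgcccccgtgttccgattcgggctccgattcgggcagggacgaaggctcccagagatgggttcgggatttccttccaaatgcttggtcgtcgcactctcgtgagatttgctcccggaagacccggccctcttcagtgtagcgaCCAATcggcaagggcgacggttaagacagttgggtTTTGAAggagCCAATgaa
Mki67, chr7:135716380-135716629, minus strand: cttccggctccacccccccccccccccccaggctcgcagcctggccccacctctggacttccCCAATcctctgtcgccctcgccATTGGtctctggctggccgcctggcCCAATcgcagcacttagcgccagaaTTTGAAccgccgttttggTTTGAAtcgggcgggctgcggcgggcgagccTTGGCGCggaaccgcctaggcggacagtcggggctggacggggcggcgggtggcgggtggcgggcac
Aurka, chr2:172370571-172370820, minus strand: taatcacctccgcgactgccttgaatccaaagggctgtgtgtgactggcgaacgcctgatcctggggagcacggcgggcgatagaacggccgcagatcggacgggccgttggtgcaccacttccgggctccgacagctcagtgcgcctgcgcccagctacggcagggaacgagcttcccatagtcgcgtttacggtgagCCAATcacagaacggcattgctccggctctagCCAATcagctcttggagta
Ccnb2, chr9:70421555-70421804, minus strand: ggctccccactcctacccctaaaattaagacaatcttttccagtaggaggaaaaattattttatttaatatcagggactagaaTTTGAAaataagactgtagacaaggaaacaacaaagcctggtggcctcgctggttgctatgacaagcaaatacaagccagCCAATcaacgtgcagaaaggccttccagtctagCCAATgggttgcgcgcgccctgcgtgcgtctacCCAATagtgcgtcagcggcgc

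The 4 sequences differ in the elements they hold. Cdc20 has 2 CCAAT boxes with a TTTGAA between them, and the boxes begin 53 and 8 bases before the start. Mki67 has 3 CCAAT boxes, 2 TTTGAA elements and 1 TTGGCGC. Ccnb2 has 3 CCAAT boxes, which begin 87, 54 and 21 bases before the start, and a TTTGAA farther upstream. Aurka has 2 CCAAT boxes and neither of the other elements in the printed stretch.

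Over the whole 300-base window and both strands, CCAAT occurred in all 9 G2 and mitosis promoters and in all 10 replication promoters. Of all 32851 promoters in the set, 37.4% held it. TTTGAA was in 7 of 9 promoters in G2 and mitosis and in 1 of 10 in replication, against 17.9% of all promoters. The E2F cores TTCCCGC or TTGGCGC were in 7 of 10 replication promoters, 4 of 8 promoters of E2F factors and pocket proteins and 3 of 9 G2 and mitosis promoters, against 6.81% of all promoters. These counts describe letters in a window and do not show that a factor binds there.

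Between 55772659 and 72842744 reads were counted on genes per library. Both deleted receptors were lower in both LXRDKO livers, with adjusted P values under 0.05 (limma), but reads remained on both genes. Nr1h3 stood at 5785 and 5322 normalized counts in WT against 1712 and 1826 in LXRDKO. Nr1h2 stood at 2987 and 3110 in WT against 925 and 1003 in LXRDKO. Values were compared as log2(normalized count + 1) with limma over the 15578 genes whose mean reached 10 normalized counts, and a gene is said to be called when its adjusted P value was under 0.05. A fold change on this scale understates the change of genes with few counts. A two-sided exact permutation test of 2 livers against 2 cannot give a P value under 0.33, so the P values rest on the spread that limma pools over genes. In whole liver, fewer cells of a type and less RNA per cell cannot be told apart.

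None of the 43 genes was called by limma, where 0.321% of all genes tested were called. Without adjustment, 12 of the 43 had a P value under 0.05 and were higher in LXRDKO (5.77% of all genes tested), and 2 were lower (7.50%). edgeR, by its quasi-likelihood test on recovered reads, called none of the 43 (0.315% of all genes). DESeq2 on the same reads called 3 of the 43, against 3.59% of the genes it tested. These were E2f8, lower in LXRDKO (2.03% of all genes), and Myc and Cdkn2c, higher in LXRDKO (1.56%). For 17 of the 43 genes the LXRDKO livers lay above both WT livers (21.7% of all genes), and for 6 they lay below both (23.0%). The log2 fold change was above 0 for 29 of the 43 (49.1% of all genes), with a median of 0.12 over the 43 genes and −0.0046 over all genes tested.

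**Figure D1:**
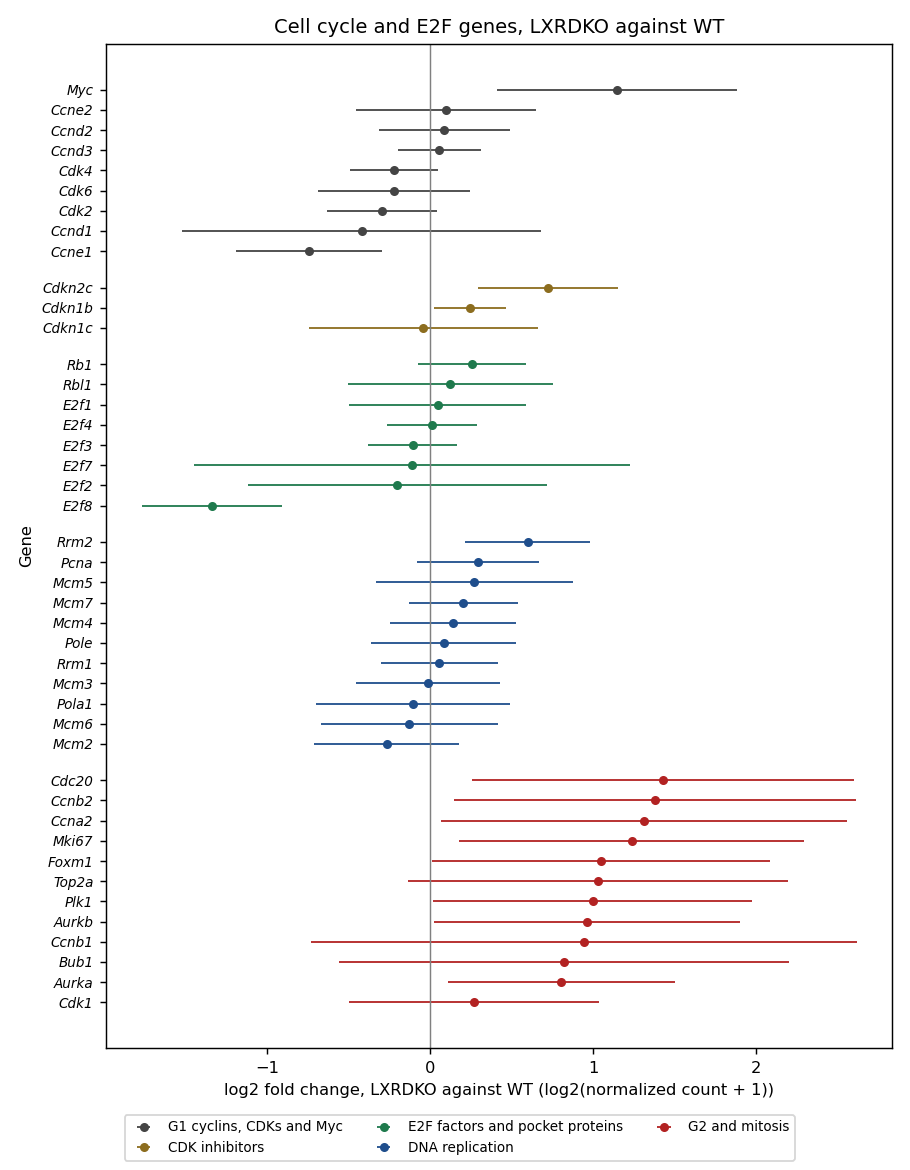
Log2 fold change of each of the 43 genes, LXRDKO against WT, on the log2(normalized count + 1) scale (points), with its 95% confidence interval from limma (lines), grouped and coloured by role. The 12 G2 and mitosis genes all lie right of 0 with wide intervals, E2f8 lies farthest left at −1.34, and the replication genes lie near 0 apart from Rrm2 at 0.60.

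The D-type cyclins and their kinases, which act in the G1 phase, were not called by any of the 3 tools. Ccnd1, the D-type cyclin that regenerating hepatocytes induce, stood at 1438 and 3870 normalized counts in WT against 1965 and 1584 in LXRDKO. The WT livers differed 2.69-fold from each other and enclosed both LXRDKO livers. Its log2 fold change of −0.42 (SE 0.44, adjusted P = 0.757, limma) depended on which WT liver was used, and it was −1.13 without WT replicate 1 (adjusted P = 0.0290, limma) and 0.29 without WT replicate 2.

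Ccnd2 and Ccnd3, the other D-type cyclins, had log2 fold changes of 0.09 and 0.06, with overlapping groups. Cdk4 was below both WT livers in both LXRDKO livers, at 2288 and 2659 normalized counts in WT against 2140 and 2086 in LXRDKO. Its log2 fold change was −0.22 (95% CI −0.49 to 0.05, adjusted P = 0.455, limma). Cdk6, the partner kinase, gave −0.22 as well (95% CI −0.69 to 0.24), and its groups overlapped. Per kilobase of exon, Cdk4 had the highest WT level of the G1 genes (761 normalized counts per kb) and Ccne2 the lowest (31.9).

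Cyclin E with CDK2 completes the phosphorylation of the pocket proteins. Ccne1 stood at 328 and 370 normalized counts in WT against 228 and 190 in LXRDKO. The LXRDKO livers were the 2 lowest, and the log2 fold change of −0.74 (SE 0.18) had an unadjusted P value of 0.0070 and an adjusted P value of 0.201 (limma). The adjusted P value of Ccne1 was 0.0649 from DESeq2. Without any 1 of the livers its log2 fold change lay between −0.87 and −0.61. Ccne2, the second E-type cyclin, stood at 111 and 112 normalized counts in WT against 108 and 131 in LXRDKO, and its groups overlapped. Cdk2 stood at 1089 and 1215 in WT against 1024 and 857 in LXRDKO, without overlap, and gave a log2 fold change of −0.30 (adjusted P = 0.421, limma).

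Myc encodes a transcription factor that promotes growth and entry into the cycle. It stood at 440 and 842 normalized counts in WT against 1333 and 1366 in LXRDKO. The LXRDKO livers were nearly alike and above both WT livers, which differed 1.91-fold. The log2 fold change was 1.15 (SE 0.30, adjusted P = 0.218, limma), and DESeq2 called Myc with an adjusted P value of 0.00804. Leaving out WT replicate 1 gave 0.68, and leaving out WT replicate 2 gave 1.61.

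The CDK inhibitors oppose these kinases. Cdkn2c, which encodes p18INK4C, an inhibitor of CDK4 and CDK6, stood at 281 and 278 normalized counts in WT against 519 and 411 in LXRDKO. Both LXRDKO livers were higher, by 1.66-fold in the mean, a log2 fold change of 0.72 (SE 0.17, adjusted P = 0.194, limma). DESeq2 called it with an adjusted P value of 0.0428. Cdkn1b, which encodes p27KIP1, stood at 1775 and 1831 normalized counts in WT against 2126 and 2141 in LXRDKO. The groups did not overlap, and the log2 fold change of 0.24 (SE 0.09) had an unadjusted P value of 0.0372 and an adjusted P value of 0.341 (limma). Cdkn1c, which encodes p57KIP2, was between 89.0 and 138 normalized counts in all 4 livers, and the LXRDKO livers lay between the WT livers.

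E2f8 had the lowest log2 fold change and the lowest P value of the 43 genes. It lies on chromosome 7 from 48866429 to 48881596 (GRCm38). It stood at 1228 and 1550 normalized counts in WT against 488 and 608 in LXRDKO. The LXRDKO mean was 0.394 of the WT mean, and the genotypes did not overlap. Its log2 fold change was −1.34 (SE 0.17, 95% CI −1.77 to −0.91). The adjusted P values were 0.0657 by limma, 0.0717 by edgeR and 2.85e-08 by DESeq2. Without any 1 of the livers the log2 fold change lay between −1.51 and −1.17. Another gene, Gm2788, lies on the opposite strand and shares 11.2% of the exon bases of E2f8. The library kit keeps the strand, but whether the counting used it is not given in the sources used here. Larger overlaps of this kind were found for Cdkn1c (30.7% of exon bases), Ccnd1 (23.4%), Cdk4 (19.7%), Ccne2 (17.4%) and Ccna2 (12.5%). Rb1 overlaps both Rcbtb2 (8.11%) and Lpar6 (6.78%) on the opposite strand. Ccnd3, Pcna, Ccnb1 and Ccnb2 have named pseudogenes. The counts of all these genes are less certain.

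E2f7, the closest relative of E2f8 in structure and function, stood at 75.3 and 32.3 normalized counts in WT against 64.5 and 32.2 in LXRDKO. Each genotype held 1 high and 1 low liver, and the log2 fold change of −0.11 had an SE of 0.54. The difference between E2f8 and E2f7 was not tested. Per kilobase of exon, E2f8 had 255 normalized counts in WT and E2f7 had 5.97.

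The activating factors E2f1, E2f2 and E2f3 had log2 fold changes of 0.05, −0.20 and −0.11, and E2f4, the factor of the DREAM complex, had 0.01. E2f3 alone of these had LXRDKO livers below both WT livers, at 930 and 866 normalized counts in WT against 823 and 842 in LXRDKO. The intervals of E2f3 (−0.38 to 0.17) and E2f4 (−0.26 to 0.29) were narrower than that of E2f2 (−1.12 to 0.71). Rb1, which encodes the retinoblastoma protein, stood at 793 and 675 normalized counts in WT against 833 and 915 in LXRDKO, a log2 fold change of 0.26 (adjusted P = 0.491, limma). Rbl1, which encodes the pocket protein p107, had 0.12, with overlapping groups.

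**Figure D2:**
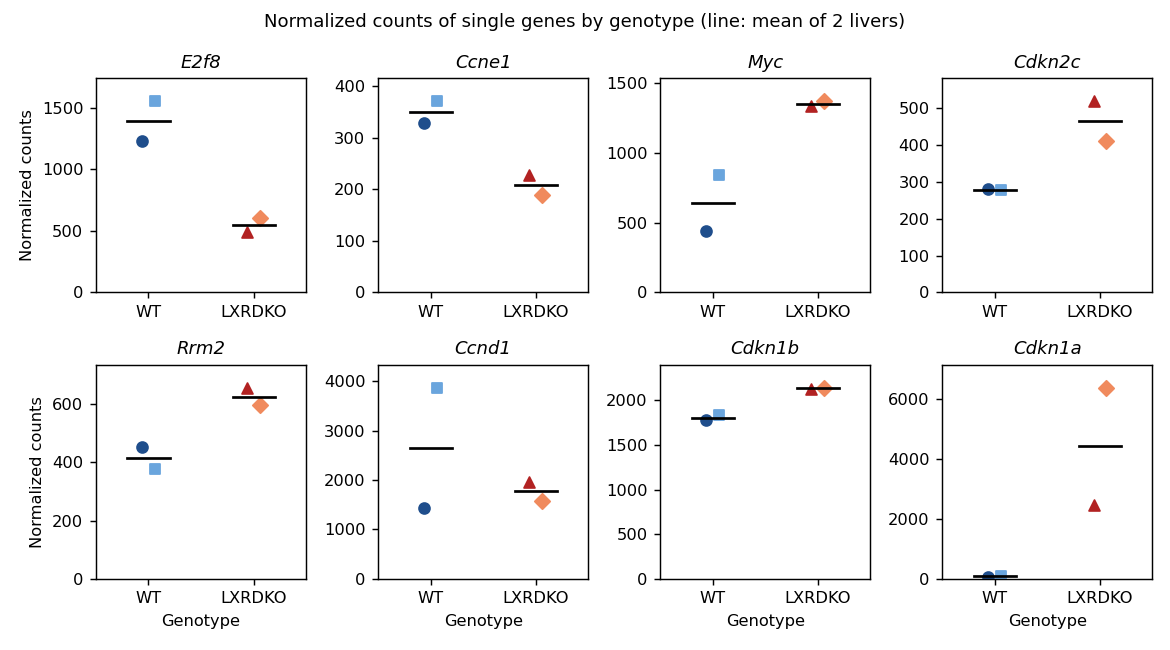
Normalized counts of 8 genes in each of the 2 WT and 2 LXRDKO livers (points, coloured and shaped by liver as in the other plots, with a line at the mean of each genotype and a linear axis from 0). The genotypes do not overlap for E2f8, Ccne1, Myc, Cdkn2c, Rrm2, Cdkn1b and Cdkn1a, while WT replicate 2 stands apart for Ccnd1 at 3870.

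The replication genes lay near 0. Limma, edgeR and DESeq2 called none of the 11, against 0.321%, 0.315% and 3.59% of all genes they tested. Of the 11, 7 had a log2 fold change above 0 and 4 below, and the median was 0.08. Mcm3, 1 of the 4 below, was above 0 under upper-quartile and library-total scaling. The 6 subunits of the MCM helicase, which unwinds DNA at replication forks, ranged from −0.27 for Mcm2 to 0.27 for Mcm5. Mcm2 stood at 220 and 213 normalized counts in WT against 191 and 169 in LXRDKO, without overlap, and its interval of −0.71 to 0.18 included 0. Mcm4 and Mcm7 were above both WT livers in both LXRDKO livers, by 0.14 and 0.20 on the log2 scale.

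Rrm2, the small subunit of the ribonucleotide reductase that makes deoxynucleotides, was the replication gene with the lowest P value. It stood at 454 and 375 normalized counts in WT against 656 and 595 in LXRDKO, without overlap. The log2 fold change was 0.60 (SE 0.15, adjusted P = 0.218 from limma and 0.0906 from DESeq2). Rrm1, the large subunit, stood at 686 and 858 in WT against 793 and 803 in LXRDKO, both between the WT livers. Pcna, the sliding clamp of the DNA polymerases, stood at 537 and 582 in WT against 619 and 760 in LXRDKO, a log2 fold change of 0.29 (95% CI −0.08 to 0.67). Pola1 and Pole, catalytic subunits of DNA polymerases α and ε, had −0.11 and 0.08, and for both the LXRDKO livers lay between the WT livers.

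The other genes of replication and S phase also centred near 0. Of 50 further genes on a list, 49 were tested, 27 were higher and 22 lower, and the median log2 fold change was 0.03. Limma and edgeR called none of them (0.321% and 0.315% of all genes). An unadjusted limma P value under 0.05 was found for 5 (13.3% of all genes), and DESeq2 called 1 (3.59%). That gene was Pold1, the catalytic subunit of DNA polymerase δ. It stood at 268 and 239 normalized counts in WT against 98.7 and 76.1 in LXRDKO, a log2 fold change of −1.53 (SE 0.23, adjusted P = 0.0893 from limma and 5.29e-05 from DESeq2). Pold1 lies 0.767 kb from Nr1h2, 1 of the deleted genes.

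All 12 G2 and mitosis genes had higher means in LXRDKO, with a median log2 fold change of 1.01. None was called by limma, edgeR or DESeq2 (0.321%, 0.315% and 3.59% of all genes they tested). Without adjustment 8 of the 12 had a limma P value under 0.05 and were higher (5.77% of all genes), and for 9 of the 12 the LXRDKO livers were the 2 highest (21.7% of all genes). The livers of 1 genotype also differed from each other over the same genes. WT replicate 1 was the lowest of the 4 livers for all 12 genes, and LXRDKO replicate 1 was the highest for 11. The median log2 difference between WT replicate 2 and WT replicate 1 was 1.07, as large as the median between genotypes, and WT replicate 2 was the higher for all 12 (49.5% of all genes). Between LXRDKO replicate 2 and LXRDKO replicate 1 it was −0.43.

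The mitotic cyclins and CDK1 form the kinase that drives entry into mitosis. Ccna2, cyclin A2, stood at 47.9 and 139 normalized counts in WT against 226 and 185 in LXRDKO. Ccnb2, cyclin B2, stood at 27.4 and 77.2 in WT against 119 and 124 in LXRDKO. For both cyclins the LXRDKO livers were above the WT livers, and WT replicate 2 lay near the middle of the range. Their log2 fold changes were 1.31 (SE 0.50, adjusted P = 0.353, limma) and 1.38 (SE 0.50, adjusted P = 0.331, limma). Without WT replicate 2 the values were 2.07 and 2.11, and without WT replicate 1 they were 0.55 and 0.65.

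Ccnb1, cyclin B1, and Cdk1 overlapped between genotypes. Ccnb1 stood at 3.42 and 10.2 normalized counts in WT against 18.0 and 8.58 in LXRDKO, and its 3.42 in WT replicate 1 stands for 3 reads. Cdk1 stood at 81.0 and 131 in WT against 140 and 110 in LXRDKO. WT replicate 2 was above LXRDKO replicate 2 for both genes. The log2 fold change of Cdk1, 0.27 (95% CI −0.50 to 1.03), was the lowest of the 12.

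Foxm1 encodes a transcription factor that switches on G2 and mitosis genes. It stood at 35.4 and 79.8 normalized counts in WT against 114 and 108 in LXRDKO. The LXRDKO livers were alike and above both WT livers, while the WT livers differed 2.26-fold. This gave a log2 fold change of 1.05 (SE 0.42, adjusted P = 0.372, limma), and it was 0.47 without WT replicate 1.

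The kinases of the spindle had fewer counts. Aurka, Aurora kinase A, stood at 49.0 and 50.1 normalized counts in WT against 102 and 75.0 in LXRDKO. It was the only 1 of the 12 genes whose WT livers were within a few percent of each other, and its log2 fold change was 0.80 (SE 0.28, adjusted P = 0.319, limma). Aurkb, Aurora kinase B, stood at 24.0 and 39.9 in WT against 71.2 and 52.5 in LXRDKO. Plk1, Polo-like kinase 1, stood at 29.7 and 47.5 in WT against 97.8 and 59.0 in LXRDKO. For all 3 kinases both LXRDKO livers were above both WT livers, with LXRDKO replicate 1 the higher.

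Cdc20, which activates the ubiquitin ligase that ends metaphase, had the largest log2 fold change of the 43 genes. It stood at 33.1 and 66.2 normalized counts in WT against 178 and 91.1 in LXRDKO. The LXRDKO livers were above both WT livers and differed 1.96-fold from each other, close to the 2.00-fold between the WT livers. The log2 fold change was 1.43 (SE 0.47, adjusted P = 0.304 from limma and 0.101 from DESeq2). Bub1, a kinase of the spindle checkpoint that restrains CDC20, stood at 10.3 and 22.1 in WT against 38.9 and 19.3 in LXRDKO, and its groups overlapped.

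Mki67, the gene of the Ki-67 antigen that marks dividing cells, stood at 138 and 296 normalized counts in WT against 626 and 364 in LXRDKO. The groups did not overlap, and the log2 fold change was 1.24 (SE 0.43, adjusted P = 0.317 from limma and 0.0605 from DESeq2). Top2a, the topoisomerase that untangles chromosomes, stood at 68.4 and 185 in WT against 256 and 208 in LXRDKO. WT replicate 2 lay much nearer to LXRDKO replicate 2 than to WT replicate 1, and the log2 fold change of 1.03 had an unadjusted P value of 0.0739. Per kilobase of exon the 12 genes had between 1.61 (Ccnb1) and 34.2 (Ccnb2) normalized counts in WT and between 3.16 (Ccnb1) and 79.4 (Ccnb2) in LXRDKO.

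**Figure D3:**
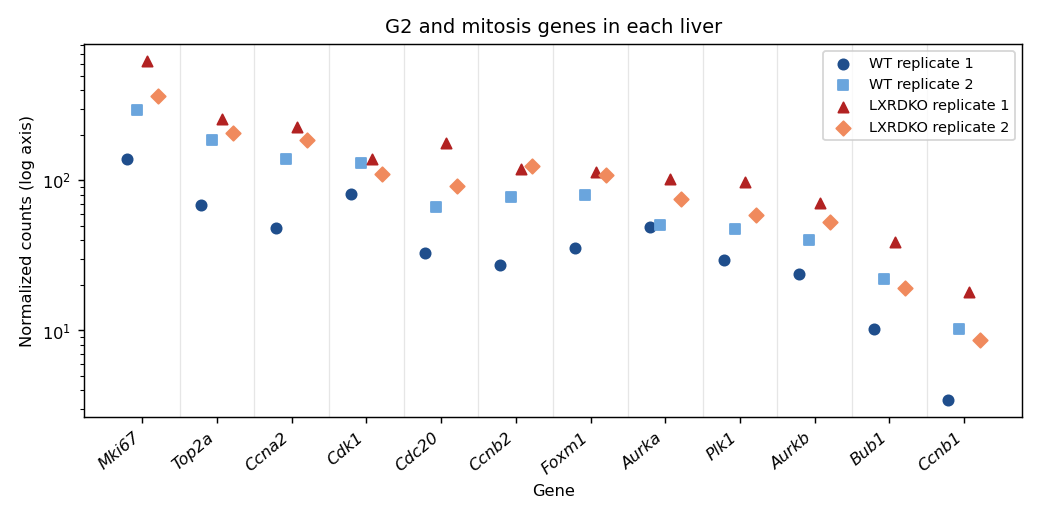
Normalized counts (log axis) of the 12 G2 and mitosis genes in each of the 4 livers (1 point per liver), ordered by mean level. WT replicate 1 is the lowest point for all 12 genes and LXRDKO replicate 1 the highest for 11, and WT replicate 2 lies above LXRDKO replicate 2 for Cdk1, Bub1 and Ccnb1.

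Most further G2 and mitosis genes had the same lowest and highest liver. Of 70 genes on a second list, WT replicate 1 was the lowest for 55 and LXRDKO replicate 1 the highest for 56. Of the 70, 66 were tested, 60 of these were higher in LXRDKO, and for 49 of the 66 the LXRDKO livers were the 2 highest (21.7% of all genes tested). The median log2 fold change was 0.76, and the median between the WT livers was 0.43. Limma and edgeR called none of the 66 (0.321% and 0.315% of all genes). At an unadjusted limma P value under 0.05, 23 of the 66 were higher (5.77% of all genes) and 3 were lower (7.50%). DESeq2 called 6 of them (3.59% of all genes). They were Cenpm, Kif20a, Kif23, Ckap2l and Gtse1, higher in LXRDKO, and Spc25, lower.

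Kif23, a motor protein needed for the final separation of daughter cells, stood at 31.9 and 39.0 normalized counts in WT against 109 and 84.7 in LXRDKO. Its WT livers were close to each other, and the log2 fold change was 1.42 (SE 0.29, adjusted P = 0.151 from limma and 0.0367 from DESeq2). Cenpm, a protein of the centromere, stood at 49.0 and 24.6 in WT against 132 and 174 in LXRDKO, and the log2 fold change was 2.09 (adjusted P = 0.131 from limma and 4.07e-04 from DESeq2). Cenpm did not follow the order of most mitotic genes, since WT replicate 1 was above WT replicate 2. Kif20a, a motor of the central spindle, stood at 73.0 and 119 in WT against 249 and 191 in LXRDKO, in that order. Gtse1, which encodes a microtubule-binding protein, stood at 98.1 and 126 in WT against 207 and 287 in LXRDKO, without overlap.

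Spc25, a subunit of the NDC80 complex that ties kinetochores to microtubules, went the other way. It stood at 495 and 761 normalized counts in WT against 318 and 354 in LXRDKO, a log2 fold change of −0.87 (SE 0.23, adjusted P = 0.222 from limma and 0.0204 from DESeq2). Spc24, its partner in the complex, stood at 822 and 799 in WT against 629 and 666 in LXRDKO, a log2 fold change of −0.32 (unadjusted P = 0.0319, limma). Their other partners were higher, Ndc80 by 1.38 and Nuf2 by 1.40 on the log2 scale, with unadjusted P values of 0.0408 and 0.0337 (limma). Spc24, Ndc80, Nuf2 and Ckap2l were picked for mention after their values were seen.

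**Figure D4:**
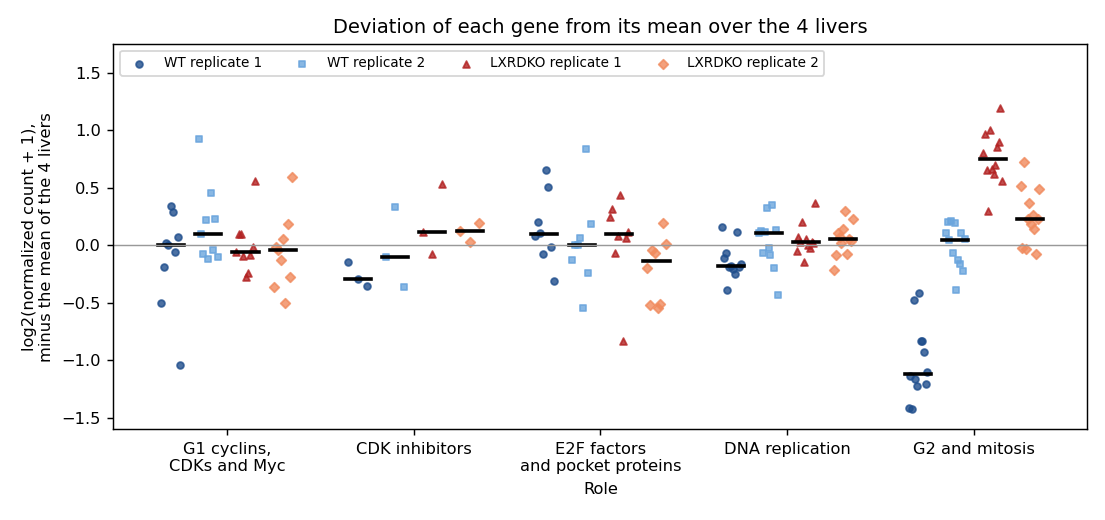
Deviation of each of the 43 genes in each liver from its own mean over the 4 livers, on the log2(normalized count + 1) scale (1 point per gene and liver, with a line at the median), by role. In G2 and mitosis the points of WT replicate 1 lie lowest and those of LXRDKO replicate 1 highest, while in the other roles the medians of the 4 livers lie nearer to 0.

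How far the genotype difference of the 12 genes exceeded the spread within a genotype depended on the livers used. Their median log2 fold change was 0.58 without WT replicate 1, with 11 genes higher, and 1.62 without WT replicate 2. Leaving out LXRDKO replicate 1 gave 0.85, a median without Ccnb1, whose mean then fell below the filter. Leaving out LXRDKO replicate 2 gave 1.33. The normalized counts of the 12 genes summed to 547 and 1144 in WT against 1986 and 1406 in LXRDKO. WT replicate 2 thus lay nearer to LXRDKO replicate 2 than to WT replicate 1.

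Marker lists of other liver cell types were summed in the same way. The 10 markers of monocytes, neutrophils and dendritic cells summed to 1312 and 1721 normalized counts in WT against 2747 and 2032 in LXRDKO, the same order of livers as the mitotic genes. Lyz2 made up most of each sum. By single gene, LXRDKO replicate 1 was the highest liver for 3 of the 10 markers. WT replicate 1 was the lowest, or tied for the lowest, for 7. Of the 6 markers tested, 5 were higher in LXRDKO and none was called, and Ly6c2, S100a8, Ly6g and Mpo had too few counts to be tested, Mpo with no read in WT replicate 1 and LXRDKO replicate 1. The 9 cholangiocyte markers in the table were all higher in LXRDKO, with sums of 3534 and 5065 in WT and 6233 and 7161 in LXRDKO, and the 10 stellate cell markers summed to 14279 and 18859 in WT against 20625 and 23647 in LXRDKO. In both lists the sum of WT replicate 1 was the lowest and that of WT replicate 2 the next. By single gene, WT replicate 1 was the lowest liver for 6 of the 9 cholangiocyte markers and 7 of the 10 stellate cell markers. Spp1, the cholangiocyte marker with the most counts, stood at 1433 and 2907 normalized counts in WT. Of the stellate cell markers, 8 were higher in LXRDKO and 2 lower. The part of these cell types in the mitotic pattern was not tested.

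The sums of the other lists did not follow the order of the mitotic genes. The 10 Kupffer cell markers, of the resident macrophages of the liver, summed to 13305 and 14357 in WT against 6881 and 4036 in LXRDKO, and 9 of them were lower. The 10 markers of sinusoidal endothelial cells summed to 17789 and 16239 in WT against 13859 and 10687 in LXRDKO. The 10 markers of B, T and NK cells summed to 275 and 385 in WT against 224 and 173 in LXRDKO. Of the erythroid precursor markers 9 were in the table, with sums from 10053 to 11740 and the lowest in WT replicate 2. Alas2 made up most of each of these sums. By single gene, WT replicate 1 was the lowest liver for 6 of the 9 markers, and LXRDKO replicate 1 was the highest for 0. The hepatocyte markers, 10 genes, summed to between 6867560 and 8001550 in all 4 livers, the highest sums of any list, as labelled for liver. Alb made up most of each of these sums. By single gene, 6 of the 10 were higher in LXRDKO and 4 lower. Limma called 0 of them (0.321% of all genes). DESeq2 called 3, all of them higher (1.56% of all genes), namely Tat, Tdo2 and Hnf4a.

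**Figure D5:**
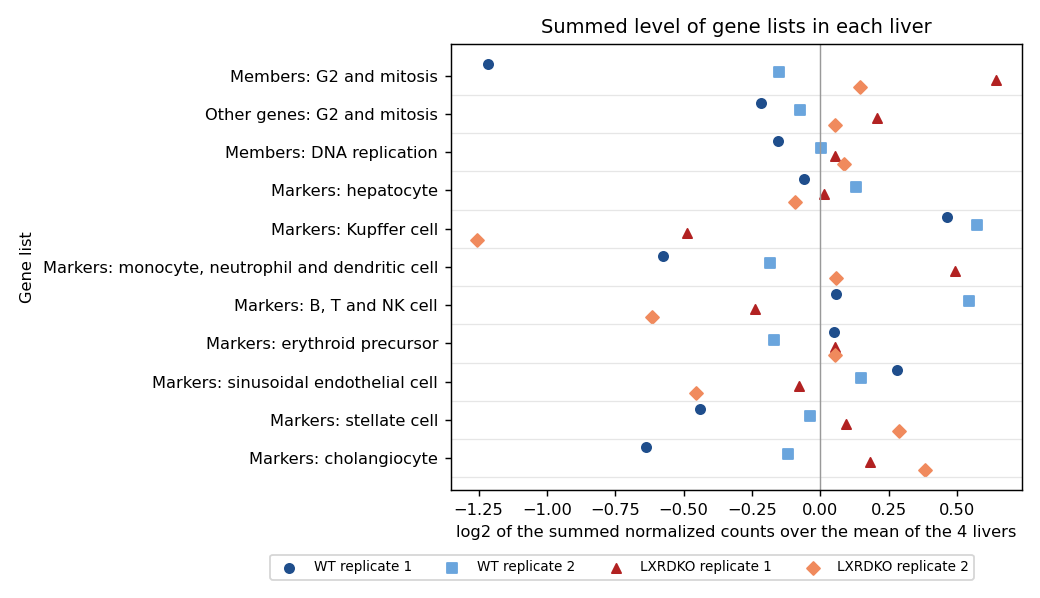
Summed normalized counts of each gene list in each of the 4 livers (1 point per liver), given as log2 of the sum over the mean of the 4 livers. The sums of the G2 and mitosis genes and of the monocyte, neutrophil and dendritic cell markers share an order of livers. From low to high it is WT replicate 1, WT replicate 2, LXRDKO replicate 2, LXRDKO replicate 1. Lyz2 makes up most of each sum of the monocyte, neutrophil and dendritic cell markers. The Kupffer cell, endothelial and lymphoid markers are lower in LXRDKO.

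A further list held regulators of these genes. Of 46 regulators of G1, E2F, DREAM and the anaphase-promoting complex, 45 were tested, 20 were higher and 25 lower, and the median log2 fold change was −0.03. Limma called 1 (0.321% of all genes), Cdkn1a, which encodes p21, the CDK inhibitor that p53 induces. Cdkn1a stood at 62.7 and 95.9 normalized counts in WT against 2457 and 6375 in LXRDKO. Both LXRDKO livers were far above both WT livers, and the log2 fold change was 5.65 (SE 0.46, adjusted P = 0.0255, limma). It lay between 4.97 and 6.34 without any 1 of the livers. Limma no longer called Cdkn1a when either LXRDKO liver was left out, though such a fit holds only 1 LXRDKO liver.

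DESeq2 called Cdkn1a and 3 more genes of this list (3.59% of all genes). Ccng1, cyclin G1, another p53 target, stood at 2621 and 2187 normalized counts in WT against 4528 and 6720 in LXRDKO, a log2 fold change of 1.20 (adjusted P = 0.115 from limma and 2.50e-06 from DESeq2). Mybl1, which encodes the MYB-family factor A-MYB, stood at 28.5 and 39.0 in WT against 84.5 and 226 in LXRDKO, and its log2 fold change was 2.02 (adjusted P = 0.205 from limma and 0.00283 from DESeq2). In Cdkn1a, Ccng1 and Mybl1, LXRDKO replicate 2 was the highest liver, unlike in most of the mitotic genes. Wee1, the kinase that holds CDK1 inactive, stood at 1791 and 1982 in WT against 1276 and 1271 in LXRDKO, a log2 fold change of −0.56 (adjusted P = 0.127 from limma and 0.00938 from DESeq2).

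The genes of the NF-Y subunits were not called by any of the 3 tools. The NF-Y box was in all 9 G2 and mitosis promoters and equally in all 10 replication promoters. Nfya stood at 595 and 587 normalized counts in WT against 668 and 770 in LXRDKO, a log2 fold change of 0.28 (adjusted P = 0.433, limma). Nfyb stood at 1612 and 1599 in WT against 1362 and 1398 in LXRDKO, a log2 fold change of −0.22 (adjusted P = 0.399, limma). Nfyc had −0.04, with overlapping groups, and was above 0 under upper-quartile and library-total scaling. The genotypes did not overlap for Nfya and Nfyb, in opposite directions.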

How the data were processed

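RNA from 2 WT and 2 LXRDKO livers was analysed. Per the labels and the methods of the study, the authors captured polyadenylated RNA with a stranded kit, aligned reads to mm10 with STAR 2.6.0c and normalized them with DESeq2. The deposited signal is a table of normalized counts, that is, reads per gene divided by 1 size factor per library. The counting tool, its strand setting and the annotation are not given in the sources used here. All values (100%) were whole reads within 0.001, so reads were recovered.

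Positions came from GENCODE M21, which matched 24987 gene identifiers and not the other 23. The main test was limma 3.58.1 in R 4.3.3 on log2(normalized count + 1), with a variance trend, for genes whose mean reached 10, adjusted by the Benjamini-Hochberg method over all genes tested. DESeq2 1.42.0, which the authors used, and edgeR 4.0.16 (its quasi-likelihood test) served as alternatives on these reads. Other alternatives were the pseudocount, filter, scaling, variance model, threshold, a replicate block and leaving out each liver. The tests were also run on simulated counts. The changes planted there were larger than the log2 fold changes of all 43 genes, so power for the 43 was not measured. The labels do not state that replicate numbers pair the mice. The correlation of replicate deviations between genotypes over all genes tested was 0.0031, and this value alone cannot settle whether they do. Nothing states that the libraries share a preparation batch or differ in one. Each library came from its own mouse.

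The 43 genes, the gene lists, the motifs and the tests were chosen with earlier results of these data known. All 43 genes are named, together with genes called on the other lists (up to 5 by DESeq2), Cdkn1a, the NF-Y subunits and the deleted receptors. The 95% intervals come from limma and rest on the spread between livers, moderated over genes. Chromatin accessibility was not analysed here.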

Additional observations from a re-analysis of the deposited data

How the results depend on the processing

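Limma called 50 of all genes tested and none of the 43. With the filter raised to a mean of 50 it called 25 genes, without the variance trend 1, and at adjusted P values of 0.01 and 0.10 it called 2 and 138. DESeq2 called 567 genes and 3 of the 43. At 0.10 limma called 1 of the 43, E2f8. With the replicate block it called 90 genes and 1 of the 43, E2f8 (adjusted P = 0.0284, limma), although the labels state no pairing by replicate number. Leaving out 1 liver gave from 2 genes (without LXRDKO replicate 1) to 262 (without WT replicate 1), and 8 and 157 without the other liver of these genotypes. Of the 43 it then called from 0 to 4, namely Ccnd1 and E2f8 without WT replicate 1 and Ccna2, Ccnb2, Top2a and Myc without the other WT liver. The median log2 fold change of the 43 then ranged from 0.10 to 0.27 and that of the G2 and mitosis genes from 0.58 to 1.62. The alternatives for the latter were chosen after seeing the data. In the bases before the start alone, CCAAT was in 33.8% of all promoters, TTTGAA in 16.0% and the E2F cores in 5.62%. TTTGAA was then in 5 of 9 G2 and mitosis promoters in place of 7, and the E2F cores in 6 of 10 replication promoters in place of 7. The cause of these shifts was not tested.

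Some named genes with small log2 fold changes reversed. Under library-total scaling Cdkn1c was 0.012, Mcm3 0.041 and Nfyc 0.016, and under upper-quartile scaling Mcm3 was 0.027 and Nfyc 0.0019. Without 1 liver the values ranged from −1.13 to 0.29 for Ccnd1, −0.057 to 0.23 for Ccnd2, −0.012 to 0.12 for Ccnd3, −0.45 to 0.0035 for Cdk6, −0.041 to 0.23 for Ccne2, −0.35 to 0.27 for Cdkn1c, −0.18 to 0.27 for E2f1, −0.62 to 0.21 for E2f2, −0.060 to 0.084 for E2f4, −0.71 to 0.49 for E2f7, −0.12 to 0.37 for Rbl1, −0.13 to 0.10 for Mcm3, −0.38 to 0.13 for Mcm6, −0.40 to 0.19 for Pola1, −0.072 to 0.24 for Pole, −0.11 to 0.22 for Rrm1, −0.074 to 0.61 for Cdk1 and −0.12 to 0.045 for Nfyc. Of the values of the named genes under all alternatives, 864 kept their direction and side of the threshold, 22 gained and 10 lost the call, and 28 reversed. The design has 2 livers per genotype, and the median difference of the G2 and mitosis genes was as large between the WT livers as between the genotypes.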

Other observations

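E2f8 and Ccne1, the 2 of the 43 genes with an unadjusted P value under 0.05 and a lower level in LXRDKO, both lie on chromosome 7 near the deleted Nr1h2, at distances of 4.31 Mb and 6.44 Mb. Pold1 lies 0.767 kb away and was lower as well. Within 10 Mb of Nr1h2, DESeq2 called 13 of the 170 genes it tested (7.65%), 10 lower and 3 higher in LXRDKO, against 3.59% of all genes. Within 10 Mb of Nr1h3 on chromosome 2 it called 1 of 79 (1.27%). No test of these shares was run, and the window was chosen after the positions of E2f8 and Ccne1 were known.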
